A study of Homo sapiens with 6 samples.

Results

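The genes described here are 8 reductases of A549 cells: the aldo-keto reductases AKR1B1, AKR1B10, AKR1C1, AKR1C2 and AKR1C3, the carbonyl reductases CBR1 and CBR3, and the quinone reductase NQO1. They were chosen by symbol, and each symbol matched exactly 1 of the 61806 genes listed. All 8 were among the 16082 genes with enough counts to be tested. RNA came from A549, a human lung adenocarcinoma cell line whose genotype is labelled WT in every sample. In 3 libraries the cells had received Japoflavone B for 24 h at a labelled dose of 40 with no unit, and in 3 libraries DMSO, the solvent, for 24 h; all cells had first been seeded for 24 h. The Japoflavone B libraries are titled LE-532, a code the labels do not explain. Libraries held 15733769 to 19822366 gene counts after Japoflavone B and 15298531 to 21744407 after DMSO.

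Aldo-keto reductases and carbonyl reductases use NADPH to reduce aldehydes and ketones to alcohols, and act on lipid aldehydes, steroids, prostaglandins, retinaldehyde and anthracycline drugs. NQO1 uses NADH or NADPH to reduce quinones to hydroquinones in a single step that avoids the semiquinone radical. Several of these genes are classical targets of NRF2, a transcription factor that KEAP1 marks for degradation. A549 cells carry a defective KEAP1, so that NRF2 is constantly active and these enzymes are abundant.

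The comparison asks which mRNA levels differed after 24 h with the compound. All 8 genes fell after Japoflavone B, at an adjusted p under 0.05 (edgeR quasi-likelihood test, Benjamini-Hochberg over all genes tested). By the same rule 35.4% of all tested genes were lower, and 70% changed in either direction. Of the 8, 6 were at least 2-fold lower, a size reached by 15% of all tested genes, while AKR1B1 was 1.13-fold and CBR1 1.17-fold lower. With scaling by library totals alone, which moved the median of all genes by -0.10 log2, these 2 had log2 fold changes of -0.28 for AKR1B1 and -0.32 for CBR1. The median log2 fold change was -1.19 over the 8 genes and -0.0038 over all genes tested. In FPKM, which are counts scaled by exon length and library total, the groups did not overlap for any of the 8, with Japoflavone B below DMSO. The same held for 40.7% of tested genes, and 71.6% had groups apart in either direction. In bulk RNA, a smaller number of cells expressing a gene and less RNA per cell cannot be told apart.

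These mRNAs made up a smaller share of the counted RNA in treated cells, while their amount per cell was not measured. Together the 8 genes took 0.486%, 0.488% and 0.482% of all gene counts in the Japoflavone B libraries, against 1.13%, 1.19% and 1.24% in the DMSO libraries. Their summed level was 1525 ± 16.2 FPKM after Japoflavone B and 3676 ± 136 FPKM after DMSO (SD, n = 3 each). In the ranking of all listed genes by mean FPKM, AKR1B10 stood at place 41 after Japoflavone B and at place 15 after DMSO, and NQO1 at place 89 after Japoflavone B and place 31 after DMSO. The coefficient of variation was larger between DMSO libraries than between treated ones for the AKR1C genes, AKR1B1, CBR1 and NQO1. It was smaller for AKR1B10 and CBR3. That of AKR1C3 was 0.846% after Japoflavone B and 8.79% after DMSO.

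**Figure D1:**
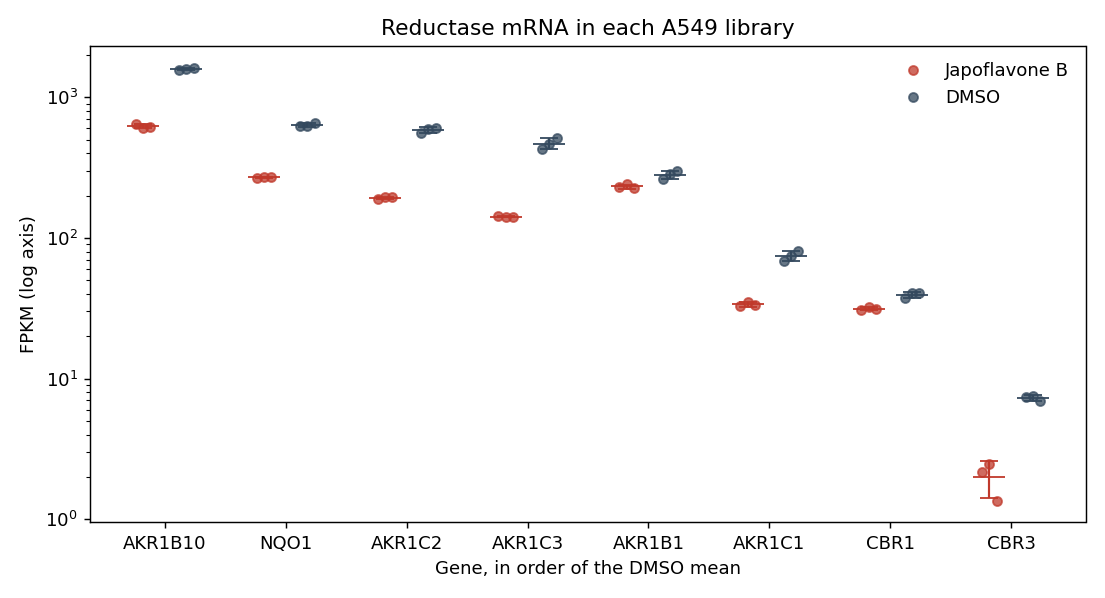
FPKM on a log axis of each of the 8 genes in the 3 Japoflavone B libraries (left of each pair) and the 3 DMSO libraries, with mean and SD. For every gene the highest Japoflavone B library lies below the lowest DMSO library, narrowly for CBR1 and AKR1B1.

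The 3 AKR1C genes lie side by side on chromosome 10 (GRCh38, coordinates as in the deposited table). AKR1C1 (ENSG00000187134) spans 4963253 to 4983283 on the plus strand, AKR1C2 (ENSG00000151632) 4987775 to 5018031 on the minus strand and AKR1C3 (ENSG00000196139) 5035354 to 5107686 on the plus strand. Their coding sequences in GENCODE 29 have 969 bases each, and those of AKR1C1 and AKR1C2 are 98.0% identical, those of AKR1C1 and AKR1C3 91.4% and those of AKR1C2 and AKR1C3 91.0%. The 250 bases upstream of the RefSeq start sites (GRCh38.p14) are shown because they are nearly as alike as the coding parts for AKR1C1 and AKR1C2, at 96.5% identity, and less so for AKR1C3, at 71.4% with AKR1C1 and 69.6% with AKR1C2. The RefSeq starts lie downstream of the gene starts in the deposited table, by 162 bases for AKR1C1, 14174 bases for AKR1C2 and 13427 bases for AKR1C3, so the windows of AKR1C2 and AKR1C3 lie wholly inside the deposited genes. Capitals mark the CCAAT box, read on either strand as CCAAT or ATTGG.
AKR1C1, chr10:4963165-4963414, plus strand: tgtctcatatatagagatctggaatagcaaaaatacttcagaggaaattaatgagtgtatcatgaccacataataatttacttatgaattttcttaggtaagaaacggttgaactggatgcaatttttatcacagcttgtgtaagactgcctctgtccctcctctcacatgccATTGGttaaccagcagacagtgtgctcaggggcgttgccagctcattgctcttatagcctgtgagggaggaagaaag
AKR1C2, chr10:5003858-5004107, minus strand: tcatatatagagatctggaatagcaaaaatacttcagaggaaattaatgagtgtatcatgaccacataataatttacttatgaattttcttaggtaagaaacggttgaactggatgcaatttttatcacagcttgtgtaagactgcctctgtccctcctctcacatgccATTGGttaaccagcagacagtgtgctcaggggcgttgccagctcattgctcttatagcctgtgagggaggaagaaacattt
AKR1C3, chr10:5048531-5048780, plus strand: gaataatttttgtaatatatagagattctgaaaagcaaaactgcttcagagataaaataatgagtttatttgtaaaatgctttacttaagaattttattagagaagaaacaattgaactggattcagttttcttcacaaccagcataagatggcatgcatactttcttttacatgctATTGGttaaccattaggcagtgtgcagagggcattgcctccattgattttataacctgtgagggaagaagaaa
In all 3 windows the inverted CCAAT box lies within the last 81 bases before the start site. CCAAT, on either strand, occurs in 32.0% of the 35116 RefSeq windows of this length. The letters TGACNNNGC, the core of the antioxidant response element that NRF2 binds, are in none of these 3 windows and, on either strand, in 10.9% of all windows.

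The AKR1C genes encode hydroxysteroid dehydrogenases: AKR1C1 inactivates progesterone, AKR1C2 inactivates dihydrotestosterone, and AKR1C3 makes testosterone and reduces prostaglandins. AKR1C3 had 142, 141 and 139.9 FPKM in the Japoflavone B libraries, against 429, 465 and 512 FPKM in the DMSO libraries. Its log2 fold change of -1.63 ± 0.06 (SE; edgeR adjusted p = 5.97e-20) is a level 3.09-fold lower. AKR1C2 had 189.7, 195 and 196 FPKM after Japoflavone B, against 554, 596 and 604 FPKM after DMSO. It was 2.82-fold lower (log2 fold change -1.49 ± 0.05, SE; edgeR adjusted p = 2.22e-20). AKR1C1 had 32.7, 34.9 and 33.4 FPKM after Japoflavone B, against 68.3, 74.2 and 81.3 FPKM after DMSO. It was 2.06-fold lower (log2 fold change -1.05 ± 0.06, SE; edgeR adjusted p = 2.42e-15). In all 3 genes the treated libraries lay close together and far below the DMSO libraries, where replicate 3 was highest and replicate 1 lowest. AKR1B1, AKR1B10, CBR1 and NQO1 had the same order of DMSO libraries, and CBR3 did not. Without DMSO replicate 3, the log2 fold change of AKR1C1 was -0.97, under 2-fold.

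The ratio of AKR1C1 to AKR1C2 in FPKM was 0.174 ± 0.00456 after Japoflavone B and 0.127 ± 0.00621 after DMSO, and that of AKR1C3 to AKR1C2 was 0.730 ± 0.0181 after Japoflavone B and 0.800 ± 0.0401 after DMSO (SD, n = 3 each). The groups did not overlap for either ratio, but the exact two-sided permutation test gave p = 0.1 for each, also after adjustment over the 4 ratios tested. That is the smallest p that 3 against 3 allows, so no ratio could pass at 0.05. Counts of these genes carry an uncertainty that the deposited table does not resolve. Of the different 50-base stretches in GENCODE 29 transcripts of AKR1C1, 28.6% also occur in transcripts of another gene, mainly AKR1C2, and for AKR1C2 38.9%, mainly in AKR1C1; at 150 bases the shares were 10.0% for AKR1C1 and 13.7% for AKR1C2. The read length and the treatment of reads that match several genes are not given in the sources used here. Summed counts do not depend on how counted reads were divided among the 3 genes, but would miss any shared reads left out of the counts. Together the 3 genes took 0.202% ± 0.00240 of all gene counts after Japoflavone B and 0.605% ± 0.0372 after DMSO (SD, n = 3 each). ENSG00000224251, which has no symbol and overlaps AKR1C2 on the other strand, had 108 counts over the Japoflavone B libraries and 558 over the DMSO libraries, and reads of the pair cannot be told apart without the strand setting. The FPKM of AKR1C1 is further divided by an exonic size of 8765 bases, against 6086 for AKR1C2 and 3911 for AKR1C3, and its longest coding transcript in GENCODE 29 has 6705 bases. The fold change does not use that size.

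The 2 AKR1B genes, neighbours on chromosome 7, both fell. AKR1B10 (ENSG00000198074, 134527567 to 134541412, plus strand), which reduces retinaldehyde and lipid aldehydes, had the highest FPKM of the 8 genes in every library. By counts, which are not divided by exonic size, AKR1C2 was above it in every library. Summed over the libraries of a group, AKR1C2 had 63501 counts and AKR1B10 59692 after Japoflavone B. After DMSO they had 205367 and 162673. AKR1B10 had 647, 605 and 614 FPKM after Japoflavone B, against 1569.7, 1574 and 1623 FPKM after DMSO. It was 2.38-fold lower (log2 fold change -1.25 ± 0.05, SE; edgeR adjusted p = 5.68e-19), with the gap between groups many times the spread within them. AKR1B1 (ENSG00000085662, 134442356 to 134459284, minus strand), aldose reductase, turns glucose into sorbitol. It had 231, 239.95 and 225 FPKM after Japoflavone B, against 263, 284 and 298 FPKM after DMSO. Its log2 fold change was -0.18 ± 0.05 (SE; edgeR adjusted p = 0.00348), which is 1.13-fold lower; the groups were separate but close.

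The ratio of AKR1B10 to AKR1B1 in FPKM was 2.68 ± 0.145 after Japoflavone B and 5.65 ± 0.274 after DMSO (SD, n = 3 each). The difference in the log2 ratio was -1.07 (exact two-sided permutation p = 0.1, the smallest possible), and the groups did not overlap. Coding sequences of AKR1B1 and AKR1B10 are 76.1% identical. Of coding 50-base stretches, AKR1B1 shares 7.23% with other genes and AKR1B10 28.5%, the latter mainly with AKR1B15 and the pseudogene AKR1B10P1. At 100 bases AKR1B10 shares 3.53% of its coding stretches, and no stretch of AKR1B1 transcripts occurs in those of another gene. AKR1B15, a close relative that starts 7698 bases past AKR1B10 on the same strand, rose: it had 7.05, 7.49 and 6.75 FPKM after Japoflavone B, against 4.47, 3.77 and 4.04 FPKM after DMSO (log2 fold change 0.89 ± 0.10, SE; edgeR adjusted p = 7.77e-09). Any reads of AKR1B10 that were counted to AKR1B15 were not resolved.

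**Figure D2:**
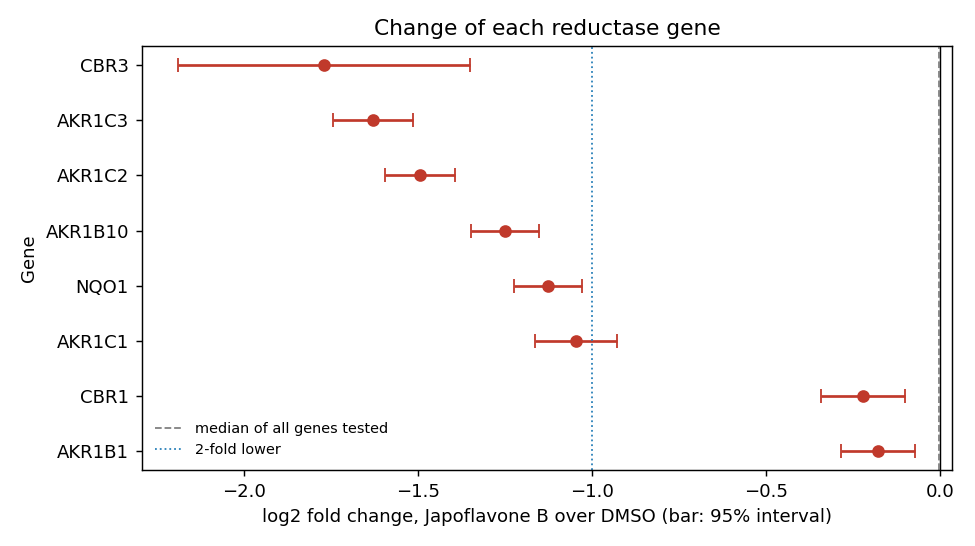
Log2 fold change of each gene, Japoflavone B over DMSO, with its 95% interval from edgeR. CBR3, AKR1C3, AKR1C2, AKR1B10, NQO1 and AKR1C1 lie beyond the dotted line of a 2-fold fall (the interval of AKR1C1 crosses it), and CBR1 and AKR1B1 lie at -0.22 and -0.18.

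CBR1 and CBR3, short-chain reductases on chromosome 21, both fell. CBR1 (ENSG00000159228, 36069941 to 36073166, plus strand) reduces prostaglandins, quinones and the drug doxorubicin. It had 30.7, 32.0 and 31.5 FPKM after Japoflavone B, against 37.3, 40.3 and 40.3 FPKM after DMSO. It was 1.17-fold lower (log2 fold change -0.22 ± 0.06, SE; edgeR adjusted p = 0.00143). CBR3 (ENSG00000159231, 36135079 to 36146562, plus strand), a paralog with a narrower range of substrates, was the least abundant of the 8 genes. It had 43, 39 and 25 counts after Japoflavone B, against 154, 163 and 106 counts after DMSO. These correspond to 2.17, 2.48 and 1.36 FPKM after Japoflavone B and to 7.41, 7.51 and 6.94 FPKM after DMSO. It was 3.41-fold lower (log2 fold change -1.77 ± 0.20, SE; edgeR adjusted p = 1.26e-08). That was the lowest of the 8 log2 fold changes, but its 95% interval, -2.19 to -1.35, holds those of AKR1C2 and AKR1C3.

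The ratio of CBR3 to CBR1 in FPKM was 0.0638 ± 0.0181 after Japoflavone B and 0.186 ± 0.0132 after DMSO (SD, n = 3 each; exact two-sided permutation p = 0.1, the smallest possible), and the groups did not overlap. No 50-base stretch of CBR1 or CBR3 transcripts in GENCODE 29 occurs in another gene's, although their coding sequences are 77.7% identical. Genes on the other strand overlap both. SETD4, which spans CBR1, had 477 counts over the Japoflavone B libraries and 712 over the DMSO libraries. CBR3-AS1, which overlaps CBR3, had 84 counts over the Japoflavone B libraries and 79 over the DMSO libraries, and did not pass the test (log2 fold change 0.29, edgeR adjusted p = 0.432). The strand setting of the counting is not given in the sources used here. The window upstream of CBR1 is shown because it was the only one of the 6 windows examined that holds the antioxidant response element core TGACNNNGC, in capitals, on the minus strand 159 bases before the RefSeq start site, which lies past the start in the deposited table.
CBR1, chr21:36069774-36070023, plus strand: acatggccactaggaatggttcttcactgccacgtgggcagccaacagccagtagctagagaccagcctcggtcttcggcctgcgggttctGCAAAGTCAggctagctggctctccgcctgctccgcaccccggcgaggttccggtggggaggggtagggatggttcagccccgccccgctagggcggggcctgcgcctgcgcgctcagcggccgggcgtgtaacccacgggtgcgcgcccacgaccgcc
RefSeq windows were at hand for 6 of the 8 genes, those of AKR1B10 and CBR3 not being used here. In the windows of AKR1B1 and NQO1 the same letters were not found, nor was the AP-1 site TGANTCA in any of the 6. Only 250 bases per gene were searched, so sites further upstream could not be found for any of them. The share of all windows with that site, on either strand, was 6.57%.

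NQO1 (ENSG00000181019, chromosome 16, 69706996 to 69726668, minus strand) had the second highest FPKM of the genes in both groups. It had 268, 271 and 269.8 FPKM after Japoflavone B, against 619, 619 and 655 FPKM after DMSO. It was 2.18-fold lower (log2 fold change -1.13 ± 0.05, SE; edgeR adjusted p = 7.05e-18), and the treated libraries differed among themselves by less than 4 FPKM. NOB1 and NFAT5, on either side of it, rose. NOB1, a nuclease that matures ribosomal RNA and lies 15203 bases upstream on the same strand, was 2.67-fold higher (90.1 ± 4.74 FPKM after Japoflavone B and 36.3 ± 3.21 FPKM after DMSO, SD, n = 3 each; edgeR adjusted p = 2.58e-17). NFAT5, on the other side at 2330 bases, had a log2 fold change of 0.42 (edgeR adjusted p = 5.52e-05). The noncoding NQO1-DT, 100 bases away on the other strand, had 65 counts over the Japoflavone B libraries and 83 over the DMSO libraries, with an adjusted p of 0.676. DOP1B, 10220 bases past CBR3, rose by 1.27 on the log2 scale. In a list of nearby genes 5 of the 12 tested rose and 4 fell (median 0.21 log2). Of all tested genes 34.7% were higher and 35.4% lower. That list did not hold every tested gene within 20000 bases of the reductases. Left out were ENSG00000224251 (-2.15 log2), entries named U8 near AKR1C1 (-1.41) and AKR1C2 (-1.20), and MEMO1P1, 3703 bases from CBR3 (-0.62), which fell. Also left out were AKR1B15 and ENSG00000273297 (0.65), which rose, and NQO1-DT.

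The order of the genes by FPKM, which depends on the exonic sizes used, differed between the groups. After Japoflavone B it ran AKR1B10, NQO1, AKR1B1, AKR1C2, AKR1C3, AKR1C1, CBR1 and CBR3, and after DMSO it ran AKR1B10, NQO1, AKR1C2, AKR1C3, AKR1B1, AKR1C1, CBR1 and CBR3. AKR1B1 thus stood above AKR1C2 and AKR1C3 in each treated library. No neighbours in either order overlapped between libraries of 1 group, but AKR1C1 and CBR1 came close after Japoflavone B (lowest 32.7 against highest 32.0 FPKM), as did NQO1 and AKR1C2 after DMSO (lowest 619 against highest 604 FPKM). Of the summed FPKM of the 8 genes, AKR1B1 made up 15.2% ± 0.485 after Japoflavone B and 7.65% ± 0.208 after DMSO, and AKR1C3 9.26% ± 0.0299 after Japoflavone B and 12.7% ± 0.646 after DMSO (SD, n = 3 each). AKR1B10 made up 40.8% ± 1.09 after Japoflavone B and 43.2% ± 0.896 after DMSO.

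**Figure D3:**
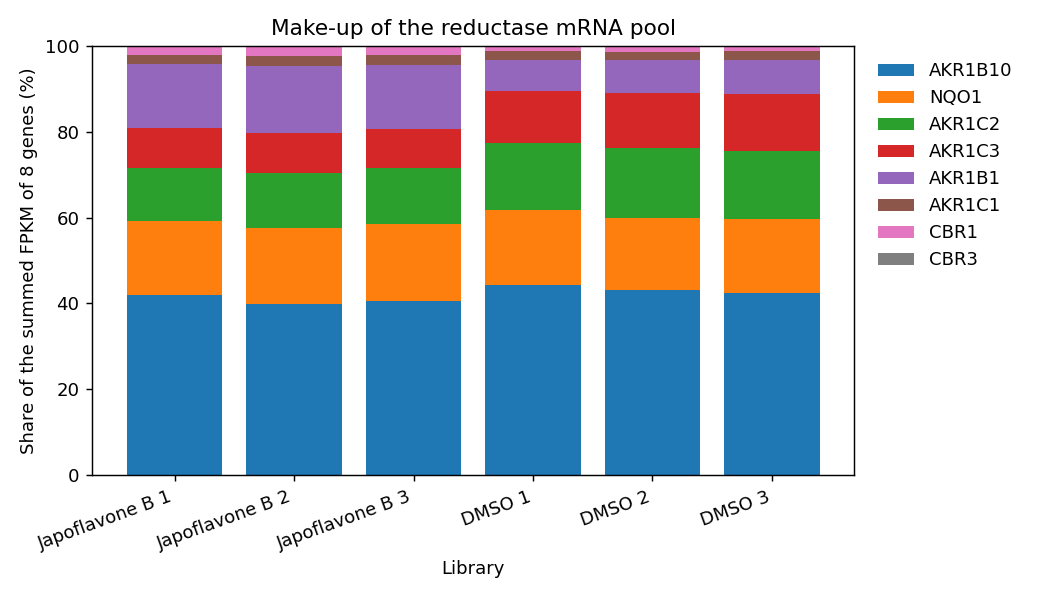
Share of the summed FPKM of the 8 genes taken by each, as stacked bars for the 3 Japoflavone B and the 3 DMSO libraries. AKR1B10 is the largest band in every bar, and the band of AKR1B1 is wider in all treated libraries, at 15.2% on average against 7.65% after DMSO.

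Likeness of profiles was measured as the root mean square difference of log2 CPM, centred per gene over the 6 libraries. CPM are counts scaled by library size and the trimmed-mean factors. The genes of the set that ran most alike were AKR1B1 with CBR1 (0.0398), AKR1C1 with NQO1 (0.0693), AKR1B10 with NQO1 (0.0730) and AKR1C2 with AKR1C3 (0.0804). Thus the closest partner of AKR1B1 was CBR1, not AKR1B10 (0.541). With 2 groups this measure mostly restates the log2 fold changes, which were -0.18 for AKR1B1, -0.22 for CBR1 and -1.25 for AKR1B10. Among 7621 other genes with a symbol and at least 5 FPKM in the higher group, the nearest to NQO1 was ANXA1 (0.0185), to AKR1B10 GNG11 (0.0207), to AKR1C2 RBPMS (0.0168), to AKR1C3 TK1 (0.0510), to AKR1C1 STK11IP (0.0330), to AKR1B1 CSTF1 (0.0192), to CBR1 POLG (0.0176) and to CBR3 WDR4 (0.119). Such closeness was common: 183 genes lay within 0.1 of NQO1 and 839 within 0.1 of CBR1, and none within 0.1 of CBR3.

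Most other NRF2 targets also fell. Of 36 tested, 28 fell and 6 rose: a share of 77.8% lower beside 35.4% among all tested genes, and their median log2 fold change was -0.61. The list was chosen with earlier results of these data known, so the share is a description and not a test. ALDH3A1, an aldehyde dehydrogenase, had 152 ± 2.67 FPKM after Japoflavone B and 473 ± 30.3 FPKM after DMSO, and PRDX1, a peroxiredoxin, 273 ± 5.71 FPKM after Japoflavone B and 607 ± 22.6 FPKM after DMSO (SD, n = 3 each). They were 2.90-fold and 2.07-fold lower, sizes within the range of the 6 reductases that fell at least 2-fold. GPX2, a glutathione peroxidase, was 5.09-fold lower, and FTL, the ferritin light chain, 2.63-fold lower. The 6 that rose were HMOX1, NR0B1, CYP4F11, LUCAT1, SLC7A11 and SRXN1, of which SLC7A11 (0.19 log2) lost its call in 4 of 15 alternatives, SRXN1 (0.25 log2) in 5 and LUCAT1 (0.43 log2) in 2. The limma fits were among these for all 3.

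In a list of NRF2, its partners and regulators, which also holds its targets HMOX1 and TXNRD1, 7 of the 17 tested rose and 8 fell (median 0.11 log2). These are 41.2% higher and 47.1% lower, beside 34.7% and 35.4% of all tested genes. MAFK and MAFF, small Maf proteins that pair with NRF2 or with each other on the same sites, were 3.46-fold and 3.66-fold higher. BACH1, a repressor that competes with NRF2 for these sites, had 9.42, 9.46 and 10.0 FPKM after Japoflavone B, against 4.25, 4.24 and 4.25 FPKM after DMSO, and was 2.43-fold higher (log2 SE 0.07; edgeR adjusted p = 5.02e-16). HMOX1, which degrades haem and is repressed by BACH1, had 119, 127 and 114 FPKM after Japoflavone B, against 60.3, 66.8 and 66.8 FPKM after DMSO, the opposite direction to the 8 reductases. HMOX1 and TXNRD1 are counted in both NRF2 lists. NFE2L2, the gene of NRF2 itself, had 10.1 ± 0.112 FPKM after Japoflavone B and 9.68 ± 0.344 FPKM after DMSO (log2 fold change 0.16, adjusted p = 0.00748). That call was lost with library totals as the scaling and in limma on log2 FPKM with either pseudocount (log2 fold change down to 0.06, adjusted p up to 0.300). KEAP1 was 2.09-fold lower, at 11.1 ± 0.351 FPKM after Japoflavone B and 24.9 ± 1.82 FPKM after DMSO (SD, n = 3 each; edgeR adjusted p = 5.86e-14).

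**Figure D4:**
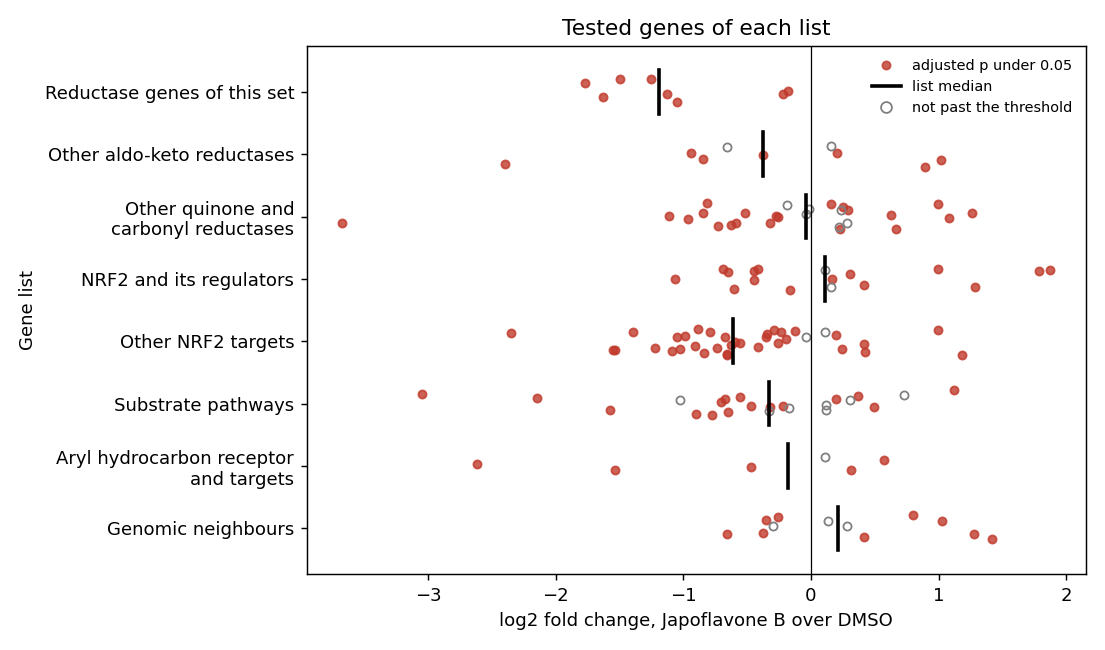
Log2 fold change, Japoflavone B over DMSO, of every tested gene in 8 lists, with filled points past an adjusted p of 0.05, open points not past it, and a bar at the median. The 8 reductases all lie left of 0 with a median of -1.19. All other lists have points on both sides of 0, including the other NRF2 targets, whose median is -0.61.

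Among 9 other aldo-keto reductases tested, 3 rose and 4 fell (median -0.38 log2). Besides AKR1B15, those named by rule were AKR1E2, which was 1.80-fold lower, KCNAB2, a potassium channel subunit of this fold, at -0.38 log2, and the pseudogene AKR1C7P at -0.94 log2. Among 27 tested genes in a list of other quinone and carbonyl reductases, 9 rose and 12 fell (median -0.04 log2). That list also holds the antisense RNA CBR3-AS1, which is not a reductase and did not pass. In both lists 33.3% were higher and 44.4% lower, near the 34.7% and 35.4% of all tested genes. TP53I3, a quinone oxidoreductase gene induced by p53, had 94.3, 87.4 and 88.3 FPKM after Japoflavone B, against 38.1, 41.9 and 40.7 FPKM after DMSO, and was 2.40-fold higher (log2 SE 0.06; edgeR adjusted p = 1.51e-17). DHRS7 was 2.00-fold higher. CRYZ, a quinone reductase, was 2.16-fold lower, and PTGR1, which reduces prostaglandins and leukotrienes, 1.80-fold lower. The deposited annotation assigns daunorubicin and doxorubicin metabolism to the 5 aldo-keto reductases of the set, and of the 4 other tested genes with the daunorubicin term, AKR1A1 and AKR1B15 rose, CBR4 fell and AKR7A2 did not pass. The call for AKR1A1 (0.20 log2) was lost in 6 of 15 alternatives, where its adjusted p reached 0.306.

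Among genes of the pathways that hold substrates of the 8 (prostaglandin, steroid, retinoid, polyol), 12 of 23 tested fell and 4 rose (median -0.33 log2). These are 52.2% lower and 17.4% higher, beside 35.4% and 34.7% of all tested genes. HPGD, which inactivates prostaglandins, was 8.26-fold lower, at 3.23 ± 0.0503 FPKM after Japoflavone B and 28.7 ± 1.43 FPKM after DMSO (SD, n = 3 each). ALDH1A1, which oxidises the retinaldehyde that AKR1B10 reduces, was 4.43-fold lower, at 626 ± 8.51 FPKM after Japoflavone B and 2973 ± 82.4 FPKM after DMSO (SD, n = 3 each). SRD5A1, a steroid reductase, was 2.18-fold higher and STS, a steroid sulfatase, 2.97-fold lower. NQO1 and ALDH3A1 are also induced by the aryl hydrocarbon receptor. Of 6 tested genes of that receptor and its targets other than NQO1, 2 rose and 3 fell (median -0.18 log2). These are 33.3% higher and 50% lower, beside 34.7% and 35.4% of all tested genes. ALDH3A1, which fell, is counted here and among the other NRF2 targets. CYP1B1, a cytochrome P450, was 6.14-fold lower, TIPARP, a repressor of the receptor, 1.49-fold higher, and AHR itself 1.38-fold lower, with ARNT at 0.32 log2.

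The labelled cell type was checked by markers. Of 6 epithelial markers, 5 had at least 1 FPKM in either group, while EPCAM averaged 0.673 FPKM after Japoflavone B and 0.907 FPKM after DMSO. The summed level of the 6, mostly keratins, was 562 to 596 FPKM after Japoflavone B and 1148 to 1317 FPKM after DMSO. It was lower in the same libraries as the reductases, and its part in their fall was not tested. The 4 alveolar type II markers, the defining surfactant gene SFTPC included, summed to under 0.1 FPKM in every library, and the 3 endothelial markers to 0.070 FPKM or less with VWF at 0 counts. The 5 leukocyte markers summed to 0.670 to 1.72 FPKM after Japoflavone B and 0.130 to 0.260 FPKM after DMSO, with CD3E at 0 counts. The 4 fibroblast markers summed to 0.570 to 0.710 FPKM after Japoflavone B and 4.55 to 5.21 FPKM after DMSO, mostly COL1A1. Genes of the mitochondrial genome took 8.33% to 8.58% of counts after Japoflavone B and 3.97% to 4.70% after DMSO; with them left out, the 8 reductases were still all called lower.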

How the data were processed

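Poly(A) RNA of A549 cells was sequenced in 6 libraries, 3 per treatment. The table deposited by the authors gives raw counts per gene as whole numbers, FPKM and the exonic gene size for each of 61806 genes. Per the submitters' processing notes, cutadapt 1.9.1, HISAT2 2.0.1, HTSeq 0.6.1, DESeq2 and the build GRCh38 were used, with no roles stated; the annotation release, the strand setting and the read length are not given in the sources used here. FPKM recomputed from the deposited counts, sizes and column totals differed by at most 0.005 from those of the authors. The exonic gene size is in bases, per the file headers.

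Groups were taken from the treatment labels. Genes passed filterByExpr (minimum count 10, minimum total 15), which kept 16082. Counts were scaled by trimmed-mean factors (0.957 to 0.970 for Japoflavone B and 1.03 to 1.04 for DMSO) and fitted with edgeR 4.0.16 in R 4.3.3 (quasi-likelihood, group as the single term), adjusted by Benjamini-Hochberg over all genes tested at 0.05. SE is the absolute log2 fold change over the square root of F. FPKM are scaled by library totals, so their ratio differs slightly from the fold. The genes, lists and tests were chosen with earlier results of these data known. Genes named were the 8, up to 4 per list by adjusted p reaching a mean of 1 FPKM in either group, genes overlapping the 8, and the nearest profiles; others were named after their values were seen. DESeq2 1.42.0 and limma 3.58.1 served as alternatives. The workflow was tested on simulated data for this comparison (16082 genes): of 100 genes changed 1.5-fold 84% were recovered, of 100 changed 2-fold 97%, and 11 of 15542 unchanged genes were called. Changed genes were few, split evenly up and down, and drawn from those with more counts. The simulation thus did not test the scaling where 70% of genes are called changed, as in these data. The labels do not say that libraries came from separate cultures, so p-values reflect variation among these 6 libraries alone, which may be technical. Identities came from global alignment in Biopython 1.88 (same bases over alignment columns), and promoter windows from RefSeq.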

Additional observations from a re-analysis of the deposited data

How the results depend on the processing

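All 8 reductases were called lower under each of the 15 alternatives: no filter, scaling by library totals, by upper quartiles or by the size factors of DESeq2, the DESeq2 test itself, the replicate block, limma on log2 of FPKM + 1 or FPKM + 0.1, each library left out, and mitochondrial genes left out (the last chosen after seeing the data). The log2 fold change of AKR1B1 ran from -0.28 to -0.13 (adjusted p up to 0.0372), of CBR1 from -0.32 to -0.19 (up to 0.0199) and of CBR3 from -1.93 to -1.48. Those at least 2-fold lower numbered 6, or 5 without DMSO replicate 3. Library totals shifted all genes by a median of -0.10 log2, and 42.4% of calls were then higher, against 49.5%. Over all genes 3940 to 5823 were higher and 4856 to 6467 lower. With either limma fit, genes called higher numbered 1 among other aldo-keto reductases, 5 among other quinone and carbonyl reductases, 3 among other NRF2 targets and 2 among the substrate pathways; fewer genes were tested there (12034). With 1 library left out these counts were 1 to 2, 8 to 10, 5 to 6 and 3 to 7, the 1 without Japoflavone B replicate 1 and the 7 without DMSO replicate 3; the cause was not tested. The 4 ratios kept their direction in all 8 alternatives each.

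Replicate numbers did not pair the libraries (correlations of deviations 0.013, -0.0042 and -0.045). With the replicate number as a block, 5502 genes were higher and 5618 lower, and all 8 reductases stayed lower.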
